A study of Homo sapiens with 5 samples.

Results

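The tRNA genes examined here were all 443 RefSeq genes of biotype tRNA on the 24 standard chromosomes of GRCh38 (hg38), out of 59675 RefSeq genes there. Each was read through a window reaching from 1 kb before the gene to 1 kb after it, and a gene counted as occupied when a deposited peak overlapped that window by at least 1 bp. A tRNA gene is short, with a median length of 73 bp (range 70 to 108), so most of each window is flanking DNA. Of the 443 genes, 368 lay more than 2 kb from the nearest end of a protein-coding gene and 75 lay within 2 kb of one. The classes are given apart, because at the 75 genes a peak of the tRNA gene and a peak of its neighbour's promoter cannot be told apart. Neighbouring tRNA genes often share a peak: their windows merged into 339 separate loci, 273 of them with 1 gene.

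The peaks came from CUT&Tag, in which an antibody directs a transposase to chromatin, in HepG2, a human liver carcinoma line. The series asks whether ENL, a chromatin reader that binds acylated histone lysines through its YEATS domain, lies where lysine 9 of histone H3 carries β-hydroxybutyrate (H3K9bhb). There was 1 library each for Flag-tagged ENL carrying the Y78A substitution in the acyl-lysine pocket of that domain, for Flag-tagged wild type ENL, and for the histone marks H3K9bhb, H3K9cr (crotonylation) and H3K9ac (acetylation). The tagged ENL was stably expressed; which promoter drives it, whether the cells are 1 clone and whether they keep their own ENL were not given in the sources used here. Cells with Flag-tagged ENL also served for the H3K9bhb library, and the cells behind the H3K9cr and H3K9ac libraries are not named. No difference between libraries has a replicate check. The intervals below are 95% Wilson intervals over genes or peaks; they cover counting error only, and genes that share a peak are not independent.

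tRNA genes are transcribed by RNA polymerase III, a different enzyme from the RNA polymerase II whose elongation complexes contain ENL. Their promoter lies inside the gene, as an A box and a B box bound by TFIIIC, which recruits TFIIIB and the polymerase just upstream, and transcription ends at a run of T. Many nearly identical copies exist, only some of them active in a given cell, and active copies lie in open chromatin with acetylated nucleosomes at their sides.

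The lists held 5422 peaks for Y78A, 11394 for wild type ENL, 9176 for H3K9bhb, 3852 for H3K9cr and 31493 for H3K9ac on the standard chromosomes. They were cut at different thresholds: the smallest deposited −log10 q was 2.04 for Y78A, 2.05 for wild type ENL, 2.02 for H3K9bhb, 1.34 for H3K9cr and 1.31 for H3K9ac. Peak names inside the H3K9ac list begin with ENL1, although the sample is labelled H3K9ac; the group was taken from the label, and each H3K9ac value below rests on it. As a check of the cell type, a peak lay at an end of 5 (Y78A), 8 (wild type ENL), 4 (H3K9bhb), 0 (H3K9cr) and 9 (H3K9ac) of 14 liver genes, against 0, 1, 0, 0 and 5 of 10 genes of other tissues. Over all protein-coding genes the shares were 14.6% (Y78A), 28.6% (wild type ENL), 23.8% (H3K9bhb), 4.49% (H3K9cr) and 56.4% (H3K9ac). The liver counts of the histone marks do not stand out from these shares, and no difference was tested, so the check is weak. The liver genes ALB, AFP, TTR, SERPINA1 and FGB had no peak in any list. Folds below are the authors' values for single peaks and serve to rank peaks within a list, not to compare lists.

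Some tRNA genes can be read in full, because they fall inside RefSeq's promoter windows (GRCh38.p14) of a neighbouring gene. There were 14 such genes. The next sequences show pairs of copies whose tRNA gene is the same letter for letter while the flanks are not. TRP-TGG3-2 and TRP-TGG3-5, both proline tRNA genes of 72 bp, differed at 0 positions. The windows are those of ANG (chr14:20683927-20684226) and OR1F1 (chr16:3187954-3188253), on the plus strand, with the tRNA gene in capitals.
TRP-TGG3-2: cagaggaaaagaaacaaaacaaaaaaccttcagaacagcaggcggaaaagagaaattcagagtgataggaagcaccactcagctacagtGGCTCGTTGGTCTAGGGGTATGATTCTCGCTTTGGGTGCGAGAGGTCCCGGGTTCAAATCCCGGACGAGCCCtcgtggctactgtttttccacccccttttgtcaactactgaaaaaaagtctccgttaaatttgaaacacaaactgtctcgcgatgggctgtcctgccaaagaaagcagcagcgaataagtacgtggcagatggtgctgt
TRP-TGG3-5: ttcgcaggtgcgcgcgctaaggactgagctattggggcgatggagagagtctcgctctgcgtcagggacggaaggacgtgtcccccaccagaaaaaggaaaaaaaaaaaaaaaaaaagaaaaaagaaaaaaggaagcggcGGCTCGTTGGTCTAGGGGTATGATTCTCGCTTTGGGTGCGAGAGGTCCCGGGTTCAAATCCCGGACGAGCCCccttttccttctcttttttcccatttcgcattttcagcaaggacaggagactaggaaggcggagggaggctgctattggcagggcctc
The copy beside ANG had a wild type ENL peak of 3.22-fold, an H3K9bhb peak of 3.38-fold and H3K9ac of 2.41-fold, no Y78A peak and no H3K9cr peak. The copy beside OR1F1 had no peak in any list. The wild type ENL peak (chr14:20682547-20683042) and the H3K9bhb peak (chr14:20682636-20683046) only touch the far edge of the tRNA window and end before the printed stretch begins. H3K9ac had 4 peaks in that window, the nearest summit 360.5 bp from the centre of the gene.

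A histidine pair also differed in its peaks. TRH-GTG1-9 and TRH-GTG1-3, again 72 bp with 0 differences, lie in the windows of SHF (chr15:45201067-45201366) and LINC01731 (chr1:148281174-148281473). Both are printed along the tRNA gene's plus strand, which is opposite to that of the neighbour, with the tRNA gene in capitals.
TRH-GTG1-9: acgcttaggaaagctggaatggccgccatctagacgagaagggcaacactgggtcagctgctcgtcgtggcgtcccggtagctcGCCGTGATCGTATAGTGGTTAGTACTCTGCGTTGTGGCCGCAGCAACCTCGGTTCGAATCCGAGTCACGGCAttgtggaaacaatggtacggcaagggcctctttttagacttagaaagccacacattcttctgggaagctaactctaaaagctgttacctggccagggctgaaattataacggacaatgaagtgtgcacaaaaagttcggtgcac
TRH-GTG1-3: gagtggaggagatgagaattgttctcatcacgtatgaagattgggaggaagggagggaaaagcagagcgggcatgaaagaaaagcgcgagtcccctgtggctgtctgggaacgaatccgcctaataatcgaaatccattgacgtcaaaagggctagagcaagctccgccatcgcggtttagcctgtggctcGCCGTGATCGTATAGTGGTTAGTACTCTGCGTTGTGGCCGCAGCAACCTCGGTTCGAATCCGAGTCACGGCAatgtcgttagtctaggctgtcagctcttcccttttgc
TRH-GTG1-9 had a Y78A peak of 4.60-fold, a wild type ENL peak of 3.25-fold and an H3K9ac peak of 2.54-fold. These ENL peaks lie over the neighbouring copy TRH-GTG1-8 and outside the printed stretch: the Y78A peak (chr15:45200351-45200597) has its summit 754.5 bp from the centre of TRH-GTG1-9, and the wild type ENL peak (chr15:45200426-45200667) 589.5 bp. TRH-GTG1-3 had no peak in any list. The core of the B box, searched as GTTCNANNC on both strands, stood inside all 14 genes and set the strand in which each is read here, as the RefSeq table gives none for tRNA genes. It occurred in 2626 of all 35116 promoter windows (7.48%). TTTT, the signal at which the polymerase stops, stood within the bases read after the gene, at most 40, in 13 of the 14. It occurs in 71.4% of all windows on either strand. That share is over whole windows, a longer stretch on both strands, and is not a background for the bases after a gene.

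In a further gene the peak lies on the printed stretch itself. TRR-ACG2-1, an arginine tRNA gene 325 bp from SACM1L, is in the window of LIMD1-AS1 (chr3:45688833-45689132) and is printed along the minus strand with the tRNA gene in capitals.
TRR-ACG2-1: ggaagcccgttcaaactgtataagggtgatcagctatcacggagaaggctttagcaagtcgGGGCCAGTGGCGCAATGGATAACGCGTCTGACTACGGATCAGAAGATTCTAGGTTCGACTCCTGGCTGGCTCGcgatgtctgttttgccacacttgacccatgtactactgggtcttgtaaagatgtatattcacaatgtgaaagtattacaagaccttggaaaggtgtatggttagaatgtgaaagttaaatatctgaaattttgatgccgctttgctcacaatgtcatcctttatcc
Its wild type ENL peak (chr3:45688997-45689653) begins at the tRNA gene and covers it, at 4.75-fold, as does the H3K9bhb peak (chr3:45688974-45689649) at 4.59-fold. The H3K9ac peak of 4.33-fold (chr3:45689133-45690017) starts beyond the gene. Y78A and H3K9cr had no peak there.

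ENL peaks lay at a minority of tRNA genes, and at fewer in Y78A than in wild type. A peak was present at 20 genes for Y78A (4.51%, interval 2.94 to 6.87) and at 80 for wild type ENL (18.1%, interval 14.8 to 21.9). H3K9bhb marked 52 genes (11.7%, interval 9.06 to 15.1) and H3K9cr marked 6 (1.35%, interval 0.622 to 2.92). H3K9ac was at 182 genes (41.1%, interval 36.6 to 45.7). In all, 191 genes had a peak in some list and 252 had none. The lists differ in length, and tRNA peaks took a small part of each: 19 Y78A peaks (0.350% of the list), 64 wild type ENL peaks (0.562%), 41 H3K9bhb peaks (0.447%), 6 H3K9cr peaks (0.156%) and 178 H3K9ac peaks (0.565%). When each list was cut to its 3852 strongest peaks, the gap between the ENL proteins was small, with 12 genes for Y78A and 15 for wild type ENL, and H3K9bhb and H3K9ac were at 17 each.

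Away from protein-coding genes the shares were lower, and they were set against short genes of other kinds in the same position. Among the 368 tRNA genes more than 2 kb from a coding gene end, Y78A had 10 (2.72%, interval 1.48 to 4.93), wild type ENL 42 (11.4%, interval 8.56 to 15.1), and H3K9bhb 21 (5.71%, interval 3.76 to 8.57). A peak of H3K9cr was at 5 (1.36%, interval 0.582 to 3.14) and one of H3K9ac at 123 (33.4%, interval 28.8 to 38.4). The same windows around 2684 miRNA, snoRNA and snRNA genes of at most 200 bp, also away from coding gene ends, had a peak in 1.6% (Y78A), 3.17% (wild type ENL), 2.24% (H3K9bhb), 0.671% (H3K9cr) and 6.45% (H3K9ac). For wild type ENL, H3K9bhb and H3K9ac the intervals of the tRNA genes lay above those of the short genes, which for wild type ENL ran from 2.57 to 3.90%. For Y78A and H3K9cr they overlapped. The short genes are a mixture. The 140 snRNA genes among them, which include genes of either polymerase, had peaks more often than the tRNA genes for Y78A (16.4%), wild type ENL (26.4%) and H3K9bhb (18.6%), and at 32.9% for H3K9ac.

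Within 2 kb of a coding gene end, wild type ENL was at 38 of 75 tRNA genes (50.7%, interval 39.6 to 61.7) and H3K9bhb at 31 (41.3%, interval 30.9 to 52.6). Y78A was at 10 (13.3%, interval 7.41 to 22.8), H3K9cr at 1 and H3K9ac at 59 (78.7%, interval 68.1 to 86.4). For 513 short genes in that position the shares were 13.6% (Y78A), 24.2% (wild type ENL), 16.4% (H3K9bhb), 3.31% (H3K9cr) and 41.3% (H3K9ac). Protein-coding genes themselves, read within 1 kb of either end, had 14.6%, 28.6%, 23.8%, 4.49% and 56.4% in the same order of lists. With a window at each end, more DNA was read for a coding gene than for a tRNA gene. Wild type ENL, H3K9bhb and H3K9ac lay at a larger share of the tRNA genes near coding ends than of either other class, while the Y78A share was close to both. For wild type ENL and H3K9ac the share was lower in each class of greater distance. Wild type ENL was at 13 of 82 tRNA genes (15.9%) between 2 and 10 kb, at 21 of 164 (12.8%) up to 50 kb, and at 8 of 122 (6.56%) beyond; H3K9ac had 41, 60 and 22 in these classes. Y78A had 4, 6 and 0, H3K9bhb 6 (7.32%), 13 (7.93%) and 2 (1.64%), and H3K9cr 1, 1 and 3. The 87 RefSeq tRNA pseudogenes, dead copies of tRNA genes, had no Y78A, wild type ENL, H3K9bhb or H3K9cr peak (interval 0 to 4.23% for each) and H3K9ac at 4 (4.60%, interval 1.80 to 11.2). Of these, 86 lie away from coding gene ends, with an interval of 0 to 4.28% for each list without a peak. It overlapped the intervals of tRNA genes away from coding ends for Y78A, H3K9bhb and H3K9cr, but not for wild type ENL (8.56 to 15.1%).

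**Figure D1:**
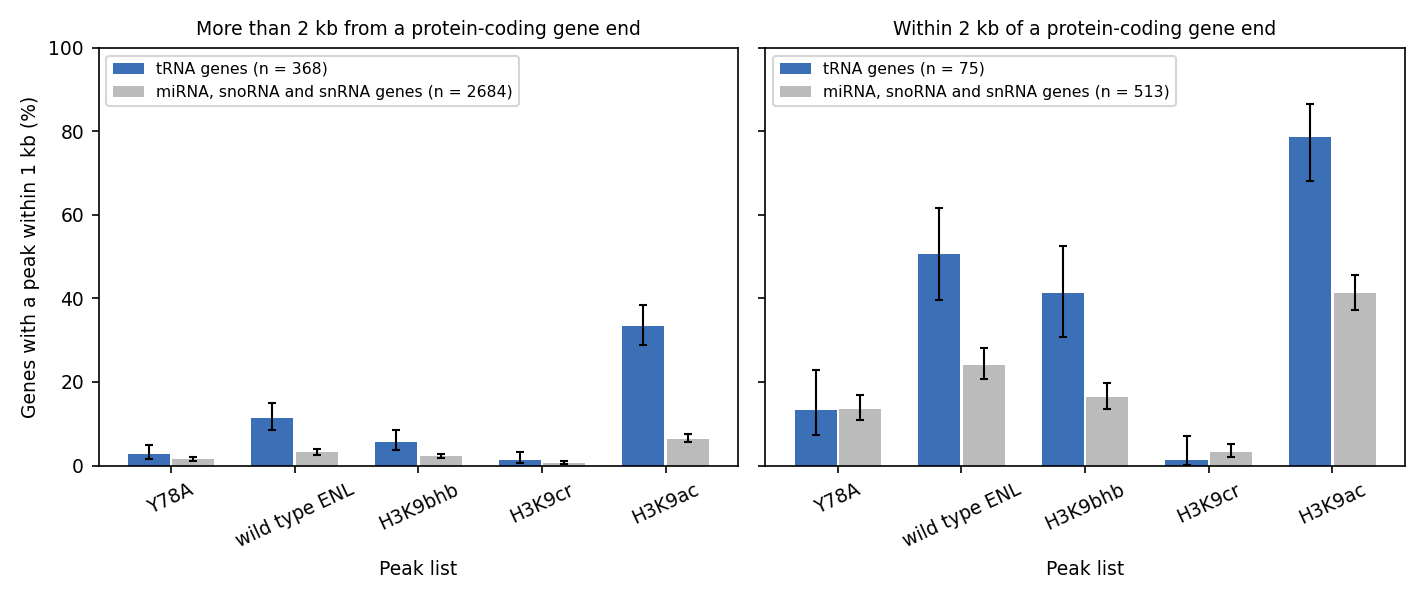
Share of genes with a peak within 1 kb (percent, vertical axis) in each of the 5 lists, for tRNA genes (blue) and for miRNA, snoRNA and snRNA genes of at most 200 bp (grey), more than 2 kb from a protein-coding gene end (left) and within 2 kb of one (right); bars carry 95% Wilson intervals, 1 library per list. The tRNA bars stand above the grey bars for wild type ENL, H3K9bhb and H3K9ac in both panels, while Y78A differs by less than its interval (2.72% against 1.6% on the left, 13.3% against 13.6% on the right).

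Away from coding genes, the site with the highest folds was TRN-GTT2-3, an asparagine tRNA gene on chromosome 10 (22229509 to 22229582), 11494 bp from EBLN1. Its peak had a fold of 6.82 in Y78A, 7.33 in wild type ENL, 6.86 in H3K9bhb and 6.79 in H3K9ac, and it had no H3K9cr peak. It ranked highest among these 368 genes in each of those lists. The Y78A peak (chr10:22229267-22229520) lies within the wild type ENL peak (chr10:22229168-22229558), and both overlap one end of the tRNA gene.

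Further tRNA sites away from coding genes carried both ENL proteins and H3K9bhb. TRI-TAT2-1, an isoleucine tRNA gene on chromosome 2 (42810536 to 42810628), had 5.27-fold in Y78A, 5.17-fold in wild type ENL, 5.63-fold in H3K9bhb and 3.79-fold in H3K9ac. TRE-TTC2-1, a glutamate tRNA gene on chromosome 13 (44917927 to 44917998), had 5.01-fold in Y78A, 5.83-fold in wild type ENL, 5.44-fold in H3K9bhb and 3.30-fold in H3K9ac. TRQ-TTG1-1, a glutamine tRNA gene on chromosome 17 (49192528 to 49192599), had 4.56-fold in Y78A, 6.67-fold in wild type ENL, 5.11-fold in H3K9bhb and 4.30-fold in H3K9ac. In all of these the H3K9ac peak had the lowest fold, although folds are not on 1 scale between lists. TRH-GTG1-7, a histidine tRNA gene inside SHF on chromosome 15, had 4.90-fold in Y78A, 4.60-fold in wild type ENL, 4.02-fold in H3K9bhb and 3.23-fold in H3K9ac. TRL-CAG2-1 and TRL-CAG2-2, neighbouring leucine tRNA genes on chromosome 16, shared peaks of 4.01-fold in Y78A, 3.93-fold in wild type ENL and 3.48-fold in H3K9bhb, and they alone had Y78A without an H3K9ac peak.

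Other tRNA genes had a strong wild type ENL peak and none in Y78A. TRM-CAT2-1, a methionine tRNA gene on chromosome 16 (71426493 to 71426565), stood at 6.23-fold for wild type ENL, 4.66-fold for H3K9bhb and 3.81-fold for H3K9ac. TRD-GTC2-8, an aspartate tRNA gene inside LTA4H on chromosome 12 (96036021 to 96036092), had 5.80-fold for wild type ENL, 4.91-fold for H3K9bhb and 5.30-fold for H3K9ac. TRL-TAA1-1, a leucine tRNA gene on chromosome 6 (144216547 to 144216629), had 5.28-fold for wild type ENL, 3.83-fold for H3K9bhb and 4.27-fold for H3K9ac. Its strongest wild type ENL peak (chr6:144216245-144216629) and its strongest H3K9bhb peak (chr6:144215807-144216014) do not overlap. These genes had H3K9bhb, and others did not. TRE-TTC2-2, the other copy of the glutamate family named above, lies 217146 bp from the nearest coding gene end on chromosome 15 (26082234 to 26082305) and had 5.68-fold for wild type ENL and 5.29-fold for H3K9ac, with no H3K9bhb and no Y78A peak. TRS-CGA3-1, a serine tRNA gene on chromosome 6 (27672450 to 27672531), had 5.24-fold for wild type ENL and 2.97-fold for H3K9ac. TRD-GTC1-1 and TRW-CCA4-1, aspartate and tryptophan tRNA genes on chromosome 12 that share their peaks, had 5.18-fold for wild type ENL and 2.55-fold for H3K9ac.

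Near coding genes, 1 tRNA gene had a peak in all 5 lists. TRG-CCC2-1, a glycine tRNA gene on chromosome 2 (70248991 to 70249061), lies 198 bp from TIA1, which encodes an RNA-binding protein of stress granules. Its folds were 7.15 in Y78A, 6.82 in wild type ENL, 4.54 in H3K9bhb, 2.70 in H3K9cr and 3.85 in H3K9ac. TRR-CCT4-1, an arginine tRNA gene 228 bp from FMC1, had 5.60-fold in Y78A, 5.86-fold in wild type ENL, 4.21-fold in H3K9bhb and 4.43-fold in H3K9ac. Its strongest Y78A peak (chr7:139341323-139341783) and its strongest wild type ENL peak (chr7:139340287-139340752) do not overlap. TRT-AGT1-3, a threonine tRNA gene 1258 bp from WDR88, had 5.19-fold in Y78A, 5.49-fold in wild type ENL, 4.82-fold in H3K9bhb and 3.89-fold in H3K9ac. TRE-TTC1-2, a glutamate tRNA gene inside ELF1, had 4.19-fold in Y78A, 5.17-fold in wild type ENL, 4.70-fold in H3K9bhb and 3.73-fold in H3K9ac. Its strongest peaks of Y78A (chr13:41060662-41060873), wild type ENL (chr13:41061313-41061997) and H3K9bhb (chr13:41060189-41060624) do not overlap one another. TRS-AGA2-5, a serine tRNA gene 456 bp from CFAP418, differed in having no Y78A peak, at 5.69-fold in wild type ENL, 4.53-fold in H3K9bhb and 4.69-fold in H3K9ac. Its strongest wild type ENL peak (chr8:95268785-95268992) and its strongest H3K9bhb peak (chr8:95269522-95269939) do not overlap. TRL-AAG2-4, named after its values were seen, lies 188 bp from POLR3E, itself the gene of an RNA polymerase III subunit. It had 4.29-fold in Y78A, 4.84-fold in wild type ENL, 3.80-fold in H3K9bhb and 3.32-fold in H3K9ac.

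**Figure D2:**
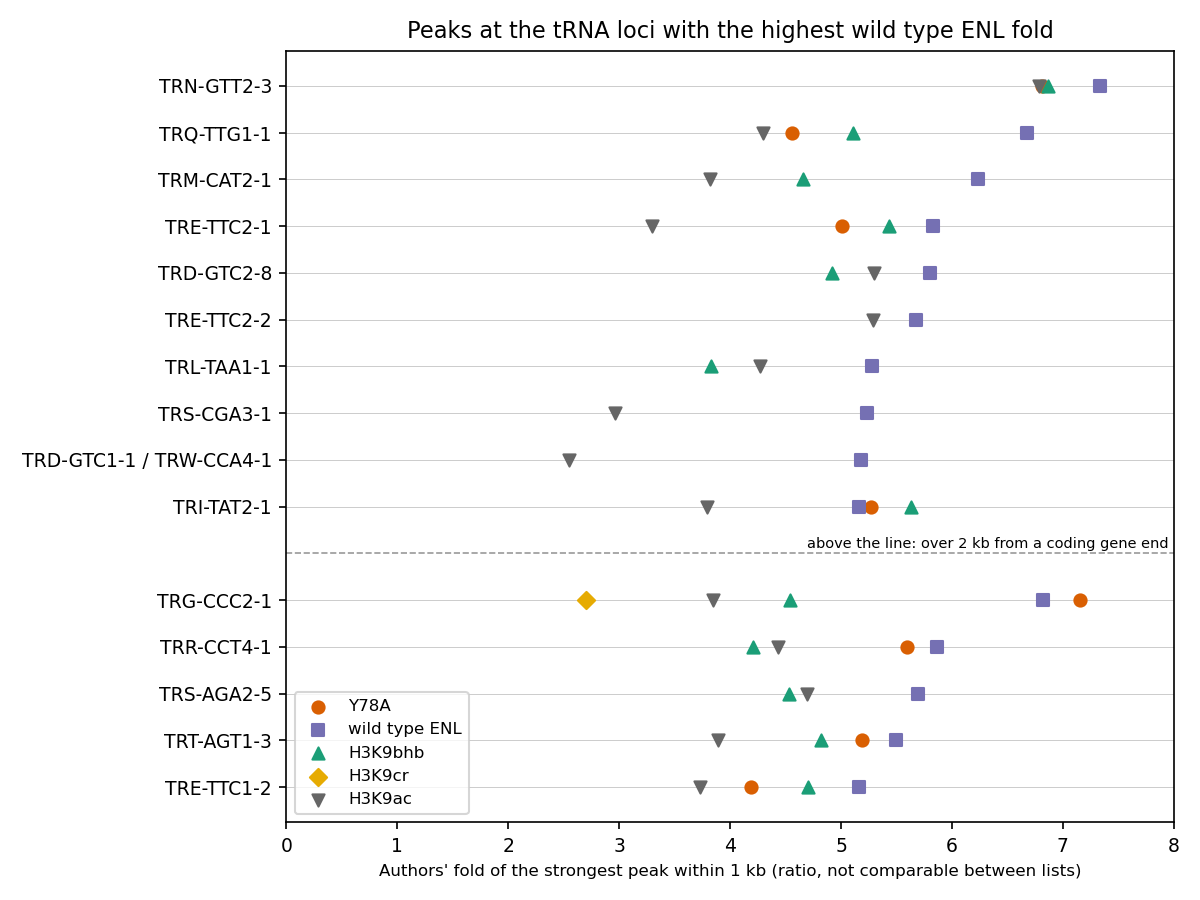
Authors' fold (horizontal axis, ratio) of the strongest peak within 1 kb of the tRNA genes with the highest wild type ENL folds, more than 2 kb from a protein-coding gene end (above the dashed line) and within 2 kb of one (below), with 1 marker per list and none where the list has no peak. Wild type ENL lies between 5.17 and 7.33 at the 10 upper sites, where Y78A is present at 4 (its marker at TRN-GTT2-3, 6.82, is partly hidden). Among the sites plotted H3K9cr appears at TRG-CCC2-1. Markers of the same gene can belong to peaks at different places in its window.

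Each of the 20 tRNA genes with a Y78A peak also had a wild type ENL peak, and at all 20 a Y78A peak overlapped a wild type peak. With stricter lists this was not so: wild type ENL was at 12 of the 14 Y78A genes at a −log10 q of at least 5, and at 7 of the 12 when all lists had 3852 peaks. In the other direction, Y78A was present at 20 of the 80 genes with wild type ENL (25%, interval 16.8 to 35.5), at 10 of 42 away from coding genes (23.8%, interval 13.5 to 38.5) and at 10 of 38 near them (26.3%, interval 15.0 to 42.0). For protein-coding genes with wild type ENL the share was 49.8% (2852 of 5732, interval 48.5 to 51.0), above each of these intervals. A coding gene was read in a window at each of its ends, which is more DNA than a tRNA window. Its Y78A and wild type ENL peaks can lie at different ends, so the comparison is not like for like. With lists of equal length Y78A was at 7 of 15 wild type ENL tRNA genes (46.7%, interval 24.8 to 69.9). This interval holds the coding share of the full lists. The wild type peaks at tRNA genes were weaker than the list as a whole. Their median fold was 4.20, against 4.997 for the list, and their median −log10 q was 6.48, against 7.79. Counted by peak, Y78A overlapped 19 of 64 wild type peaks at tRNA genes (29.7%, interval 19.9 to 41.8) and 4873 of the 11330 others (43.0%, interval 42.1 to 43.9).

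The wild type peaks were then divided by −log10 q into 4 classes of equal size, a division chosen after seeing the data. In the weakest class (up to 5.51), Y78A overlapped 3 of 22 tRNA peaks (13.6%), against 10.05% of the other peaks. In the next class (up to 7.79) it overlapped 2 of 19 (10.5%), against 21.6%, and in the one after (up to 12.0) 8 of 16 (50%), against 51.8%. In the strongest class it overlapped 6 of 7 (85.7%), against 88.4%. Within each class the interval of the tRNA peaks held the share of the other peaks. These intervals are wide: from the weakest class to the strongest, 4.75 to 33.3%, 2.94 to 31.4%, 28.0 to 72.0% and 48.7 to 97.4%. With so few tRNA peaks a difference within a class could not be seen or excluded. Of the 64 tRNA peaks, 41 fell in the weakest class or the next, and whether peak strength explains the lower overlap was not tested. H3K9bhb overlapped 4 of 22 tRNA peaks (18.2%) in the weakest class, against 33.0% of the others. From there on it overlapped 10 of 19 (52.6%) against 46.7%, 14 of 16 (87.5%) against 69.0%, and 6 of 7 (85.7%) against 90.4%.

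**Figure D3:**
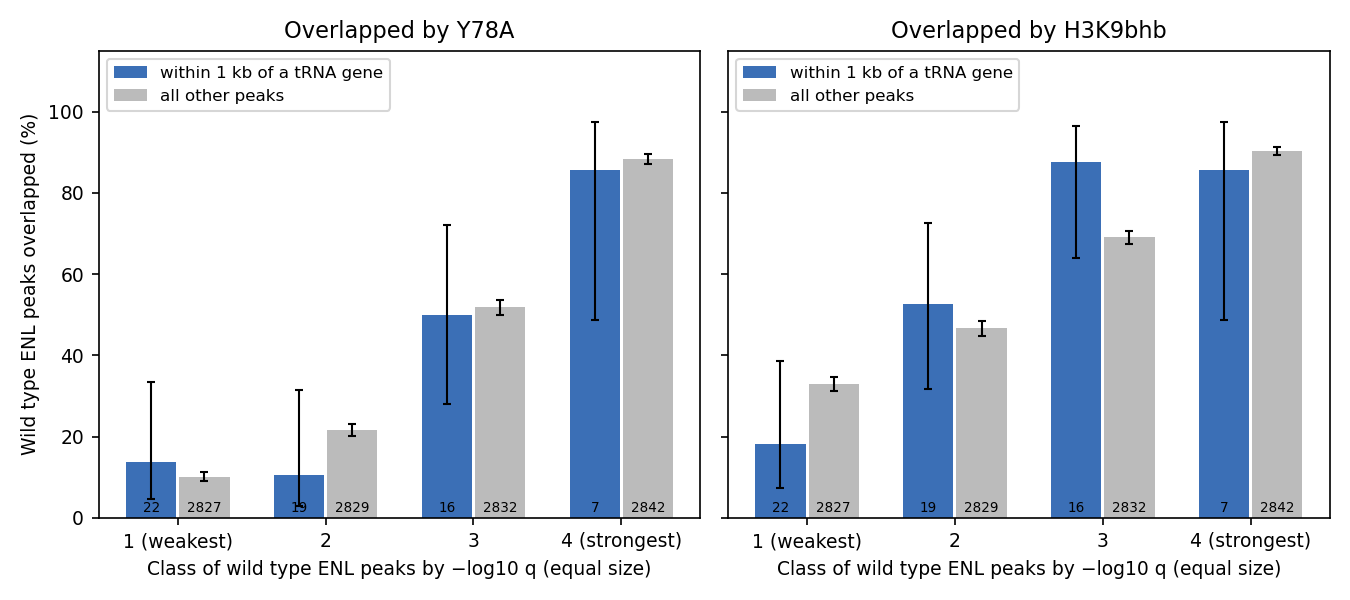
Share of wild type ENL peaks (percent, vertical axis) overlapped by a Y78A peak (left) or an H3K9bhb peak (right), in 4 classes of equal size of the wild type list by −log10 q, from weakest to strongest, for peaks within 1 kb of a tRNA gene (blue) and all other wild type peaks (grey); numbers in the bars are peaks and error bars are 95% Wilson intervals. The share overlapped by Y78A in the strongest class was 85.7% for tRNA peaks and 88.4% for the others. The blue intervals hold the grey values in all 4 classes on the left, but they are wide because each class has few tRNA peaks.

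Both ENL proteins lay at a larger share of tRNA genes with H3K9bhb than of those with H3K9ac and no H3K9bhb. The H3K9ac list is longer (31493 peaks against 9176) and was cut at a lower −log10 q (1.31 against 2.02). The strength of the H3K9ac peaks was not matched between these genes, so a link to 1 mark was not tested. Of the 52 tRNA genes with H3K9bhb, 48 had wild type ENL (92.3%, interval 81.8 to 97.0). The exceptions were TRN-GTT2-4 with an H3K9bhb fold of 4.58, TRT-CGT4-1 with 4.39, TRT-CGT2-1 with 3.24 and TRR-CCT1-1 with 2.62, and all 4 had H3K9ac. Among the 182 tRNA genes with H3K9ac, 48 also carried H3K9bhb and 134 lacked it. Wild type ENL was at 44 of those 48 (91.7%, interval 80.4 to 96.7), against 28 of the 134 (20.9%, interval 14.9 to 28.5). Y78A was at 14 of the 48 (29.2%, interval 18.2 to 43.2) and at 4 of the 134 (2.99%, interval 1.17 to 7.42). Away from coding genes, wild type ENL was at 14 of 17 tRNA genes with both marks (82.4%) and at 20 of 106 with H3K9ac alone (18.9%). Protein-coding genes gave 86.1% with both marks and 23.8% with H3K9ac alone for wild type ENL, and 54.1% and 5.27% for Y78A. The wild type shares of tRNA genes were near those of coding genes, and the Y78A share with both marks was lower. Coding genes were read in a window at each end, so their peaks can lie at different ends.

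Seen from ENL, the marks differed with position. H3K9bhb was at 48 of 80 wild type ENL tRNA genes (60%, interval 49.0 to 70.0): 18 of 42 away from coding genes (42.9%, interval 29.1 to 57.8) and 30 of 38 near them (78.9%, interval 63.7 to 88.9). Protein-coding genes with wild type ENL, read in a window at each end, had H3K9bhb at 71.4%. H3K9ac was at 72 of the 80 (90%), with 34 of 42 away and 38 of 38 near. H3K9cr was at 3 of 80 (3.75%), against 14.4% of protein-coding genes with wild type ENL. The commonest pattern after no peak at all was H3K9ac alone, at 104 genes. Wild type ENL with H3K9bhb and H3K9ac and no other peak followed at 28 genes, 22 of them near a coding gene. Wild type ENL with H3K9ac, and with neither H3K9bhb nor Y78A, was at 24 genes, 18 of them away from coding genes. Both ENL proteins with H3K9bhb and H3K9ac were at 13, and wild type ENL with no other peak was at 4.

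tRNA genes outside clusters had Y78A, wild type ENL, H3K9bhb and H3K9ac peaks at a larger share than those in clusters. A cluster was a run of 5 or more tRNA genes on 1 chromosome with at most 500 kb between neighbours; 16 such runs held 322 genes and 121 genes lay outside, alone or in runs of 2 to 4. Outside clusters Y78A was at 16 genes (13.2%, interval 8.31 to 20.4), wild type ENL at 46 (38.0%, interval 29.9 to 46.9), H3K9bhb at 38 (31.4%, interval 23.8 to 40.1) and H3K9ac at 76 (62.8%, interval 53.9 to 70.9). In clusters they were at 4 (1.24%, interval 0.484 to 3.15), 34 (10.6%, interval 7.65 to 14.4), 14 (4.35%, interval 2.61 to 7.16) and 106 genes (32.9%, interval 28.0 to 38.2). The 16 Y78A genes include the 3 histidine genes at SHF and the TRL-CAG2 pair, whose members lie side by side. Of the 121 genes outside clusters, 43 lie near a coding gene. Among genes away from coding genes, wild type ENL was at 18 of 78 outside clusters (23.1%, interval 15.1 to 33.6) and at 24 of 290 in clusters (8.28%, interval 5.62 to 12.0). Y78A was at 8 (10.3%, interval 5.29 to 18.95) and 2 (0.690%, interval 0.189 to 2.48) of these genes. The handling of reads that match several copies is not stated, and its effect on the shares in clusters was not tested.

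The largest cluster held 144 tRNA genes beside the histone genes on chromosome 6 (26286526 to 28989083), 4 of them near a coding gene. It had no Y78A peak and wild type ENL at 5 genes (3.47%), H3K9bhb at 2 (1.39%), H3K9cr at none and H3K9ac at 44 (30.6%). All 322 clustered genes, these included, had Y78A at 1.24%, wild type ENL at 10.6%, H3K9bhb at 4.35%, H3K9cr at 1.24% and H3K9ac at 32.9%. The H3K9ac share of the chromosome 6 cluster was thus near that of clustered genes, and its wild type ENL share was lower. In this cluster the wild type ENL genes were TRS-CGA3-1 at 5.24-fold, TRS-TGA2-1 at 4.27-fold, TRY-GTA6-1 at 3.89-fold, and TRR-ACG1-2 and TRV-CAC1-6, which share a 3.22-fold peak near HMGN4. TRR-ACG1-2 and TRV-CAC1-6 were also the 2 genes with H3K9bhb, at 3.52-fold. High H3K9ac folds among genes away from coding genes lay in this cluster too, with 6.10 at TRT-CGT1-1 (threonine) and 5.60 at TRA-CGC4-1 (alanine), and neither gene had a peak in another list. TRN-GTT26-1 near the start of chromosome 1 likewise had H3K9ac alone, at 5.99-fold.

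The array of 32 tRNA genes on chromosome 1 (161399700 to 161612029), which holds repeats of glycine, leucine, aspartate and glutamate tRNA genes, had weak peaks in several lists. It had no Y78A peak, wild type ENL at 9 genes from 5 peaks, H3K9bhb at 5 genes from 2 peaks, H3K9cr at 4 genes from 4 peaks and H3K9ac at 12 genes from 8 peaks. TRL-CAG1-1 and TRG-GCC1-1 shared a wild type ENL peak of 2.39-fold, an H3K9bhb peak of 2.64-fold and an H3K9ac peak of 2.32-fold, with H3K9cr of 1.99-fold and 2.43-fold. TRE-CTC1-3, TRG-TCC2-3 and TRD-GTC2-3 shared a wild type ENL peak of 2.36-fold. The same 3 families recur 14791 bp farther on as TRE-CTC1-5, TRG-TCC2-5 and TRD-GTC2-5, where wild type ENL was at 3.07-fold and H3K9bhb at 2.63-fold. Spacing was equal for all 3 families. The copies numbered 2 and 4 of these families, in the same array, had no peak in any list. How the authors placed reads that match several copies is not stated, so values at single units are uncertain. TRG-GCC1-4 had H3K9cr alone, at 2.58-fold, and TRG-GCC1-2 had H3K9cr at 2.23-fold and H3K9ac at 1.97-fold. Outside this array H3K9cr was at TRG-CCC2-1 and at TRM-CAT1-1, a methionine tRNA gene inside TBC1D31 on chromosome 8, with 3.06-fold and an H3K9ac peak of 2.84-fold. All 6 genes with H3K9cr had it to the side: none of these peaks covered the tRNA gene.

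Smaller clusters differed from one another. On chromosome 12 (124921755 to 124940037) wild type ENL was at 4 of 5 genes, H3K9ac at all 5 and H3K9bhb at none. TRD-GTC2-10 with TRA-TGC4-1 carried Y78A at 3.84-fold and wild type ENL at 3.72-fold. That Y78A peak (chr12:124940306-124940705) does not overlap that wild type ENL peak (chr12:124939633-124939985) but overlaps another. On chromosome 17 (38751781 to 39154562), a run of 5 cysteine and 1 asparagine tRNA genes, Y78A was at 1 gene, wild type ENL at 4, H3K9bhb at 3 and H3K9ac at 4; 4 of the 6 lie near a coding gene. Wild type ENL was at 5 of 14 genes on chromosome 14 (20609336 to 20684087) and H3K9bhb at 3. On chromosome 11 (59550629 to 59566452) wild type ENL was at 3 of 8 genes through 1 shared peak. Y78A, wild type ENL and H3K9bhb were each at 1 of 17 genes on chromosome 5 (181097070 to 181222467), TRV-CAC1-5. This gene lies 814 bp from TRIM41. The summits were 1173 bp (Y78A), 1023 bp (wild type ENL) and 901 bp (H3K9bhb) from its centre, and none of these peaks covered the gene.

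Other clusters had no ENL peak. The other run on chromosome 17 (8119155 to 8227064) had none at its 18 genes, although 14 of them lie within 2 kb of a coding gene, and H3K9ac was at 4. The 19 genes on chromosome 7 (149310190 to 149707740), 18 of them for cysteine, had H3K9ac at 1 and nothing else. The 14 genes on chromosome 16 (3150674 to 3192060), mostly for proline and lysine, had H3K9ac at 4. The 6 genes on chromosome 6 between 57800211 and 57856473 had no peak in any list. Of the remaining 5 runs, all on chromosome 1, 3 had H3K9ac only (at 2 of 13, 2 of 6 and 4 of 5 genes). The run from 16520585 to 16889750 had wild type ENL at 2 and H3K9ac at 5 of 8 genes, and that from 148032790 to 148529330 had each at 1 of 7.

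**Figure D4:**
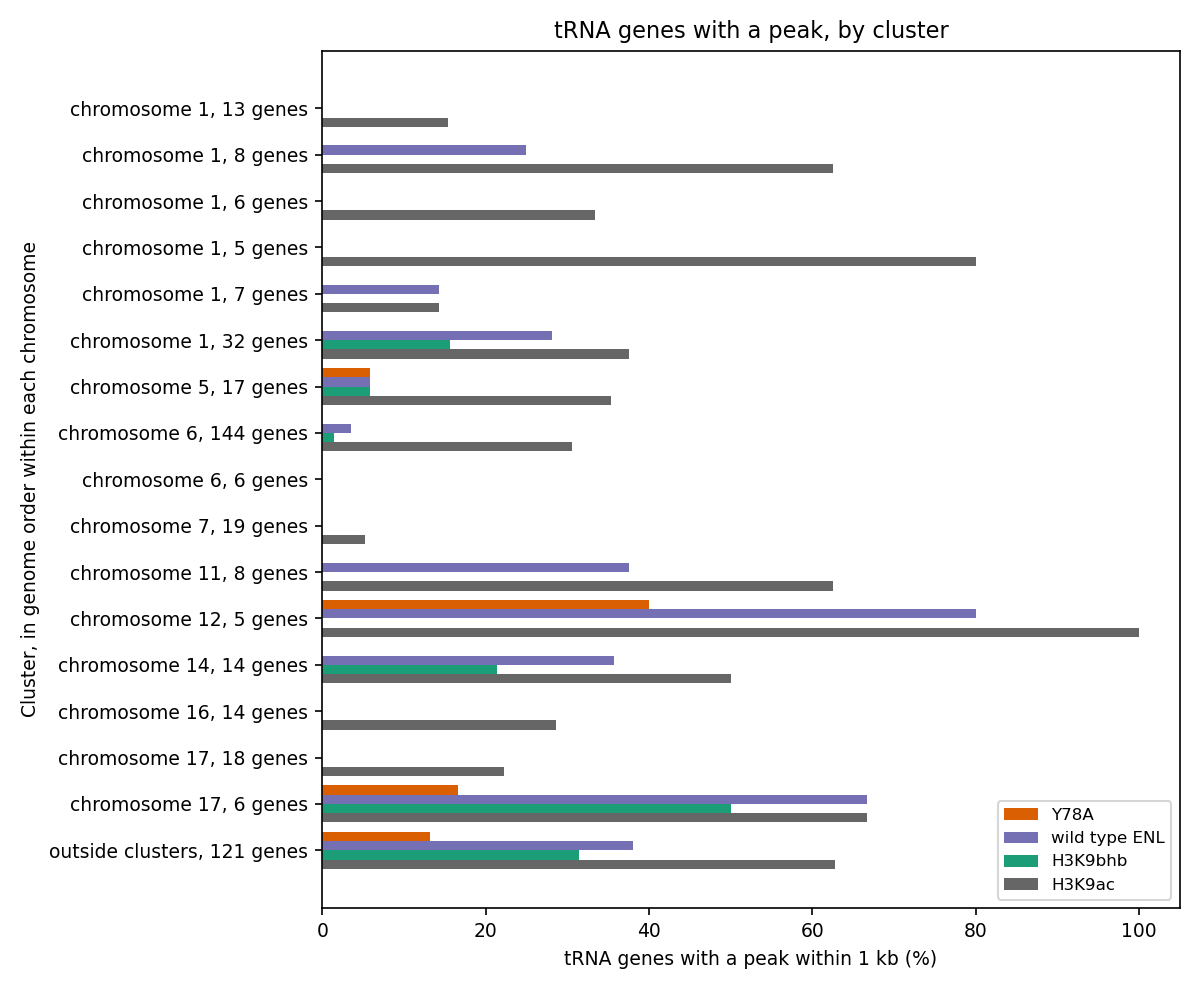
Share of tRNA genes with a peak within 1 kb (percent, horizontal axis) in each of the 16 clusters and outside them, with bars for Y78A, wild type ENL, H3K9bhb and H3K9ac and no bar where no gene had a peak; H3K9cr is left out, as 4 of its 6 genes lie in the cluster of 32 genes on chromosome 1. The cluster of 144 genes on chromosome 6 has wild type ENL at 3.47% and H3K9ac at 30.6%, and genes outside clusters have 38.0% and 62.8%.

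By isotype, the amino acid a tRNA carries, peaks were spread over nearly all classes. H3K9ac occurred in all 22 isotype classes, wild type ENL in 20, H3K9bhb in 18, Y78A in 14 and H3K9cr in 3. Over all 443 tRNA genes the shares were 4.51% (Y78A), 18.1% (wild type ENL), 11.7% (H3K9bhb), 1.35% (H3K9cr) and 41.1% (H3K9ac). No difference between isotypes was tested. Lysine was the largest class without ENL, with no Y78A, wild type ENL, H3K9bhb or H3K9cr peak at any of 27 genes and H3K9ac at 7. Of the 27, 2 lie near a coding gene. Away from coding genes the shares of all tRNA genes were 2.72% (Y78A), 11.4% (wild type ENL), 5.71% (H3K9bhb) and 1.36% (H3K9cr). The selenocysteine class, 2 genes, also lacked ENL. Wild type ENL was most frequent among classes of 10 or more genes at aspartate (6 of 13), arginine (10 of 26) and tyrosine (5 of 13). Of these, 6 aspartate, 2 arginine and 0 tyrosine genes lie away from coding genes. Arginine genes had H3K9bhb at 10 too, and Y78A at 1. Glutamate genes had Y78A at 2 and wild type ENL at 6 of 20, glycine 1 and 8 of 33, valine 2 and 8 of 30, and leucine 3 and 6 of 32. Histidine genes had Y78A and wild type ENL at 3 of 9 each, all inside or beside SHF.

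The other isotypes had fewer. Asparagine genes had Y78A at 1 and wild type ENL at 4 of 26, cysteine 1 and 3 of 29, glutamine 1 and 2 of 19, threonine 1 and 3 of 20, and methionine 1 and 2 of 11. Alanine, the most numerous class, had Y78A at 1 and wild type ENL at 3 of 38, and isoleucine had each at 1 of 23. Tyrosine genes had no Y78A peak and aspartate genes had 1. Without Y78A, wild type ENL was at 4 of 26 serine genes, 2 of 20 proline, 1 of 11 phenylalanine, 1 of 7 tryptophan and 2 of 8 initiator methionine genes. Isotypes are not independent of place: 27 of the 38 alanine genes lie in the large chromosome 6 cluster and 18 of the 29 cysteine genes in the chromosome 7 run.

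Copies of 1 family, which by the naming rule share the mature tRNA, often differed in whether they had a peak. Of 57 families with 2 or more copies (222 genes), wild type ENL was at some but not all copies in 25, at every copy in 5 and at none in 27. Y78A was at some but not all copies in 11 and at every copy in 1, TRL-CAG2. H3K9bhb was at some but not all in 25 and H3K9ac in 32. Over all 443 tRNA genes the shares with a peak were 4.51% (Y78A), 18.1% (wild type ENL), 11.7% (H3K9bhb) and 41.1% (H3K9ac). Whether copies of a family differ more or less than unrelated tRNA genes was not tested. The asparagine family TRN-GTT2 shows the spread. Of its 8 copies, TRN-GTT2-3 had peaks in 4 lists, as described, TRN-GTT2-1 had wild type ENL at 3.98-fold and TRN-GTT2-5 at 3.69-fold, both with H3K9ac, and TRN-GTT2-4 had H3K9bhb without ENL. TRN-GTT2-6 and TRN-GTT2-7 had H3K9ac alone and 2 copies had no peak. The aspartate family TRD-GTC2 had Y78A at 1, wild type ENL at 5, H3K9bhb at 2 and H3K9ac at 8 of 11 copies. Among the lysine families, TRK-CTT2 had H3K9ac at 3 of 5 copies and nothing else.

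In each list, fewer of the genes with a peak had it on the tRNA gene than only beside it. The gene is a small part of the window, so this count does not show that peaks avoid the gene. No random placement of peaks was tested. The nearest summit of a gene's peaks lay 373 bp (median) from the centre of the tRNA gene in Y78A, 291 bp in wild type ENL, 301 bp in H3K9bhb, 883 bp in H3K9cr and 475 bp in H3K9ac. It lay within 250 bp at 8 of 20 Y78A genes (40%), 34 of 80 wild type ENL genes (42.5%), 23 of 52 H3K9bhb genes (44.2%), 0 of 6 H3K9cr genes and 29 of 182 H3K9ac genes (15.9%). The peak itself overlapped the tRNA gene at 7 Y78A, 33 wild type ENL, 18 H3K9bhb and 47 H3K9ac genes. Wild type ENL and H3K9bhb summits stood closer to the genes than H3K9ac summits over all genes. At the 34 genes away from coding genes with both wild type ENL and H3K9ac, the medians were 291 bp for wild type ENL and 375 bp for H3K9ac, with wild type ENL nearer at 21 and H3K9ac nearer at 13. The median width of the peaks at tRNA genes was 384 bp in Y78A, 390.5 bp in wild type ENL and 529 bp in H3K9ac.

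**Figure D5:**
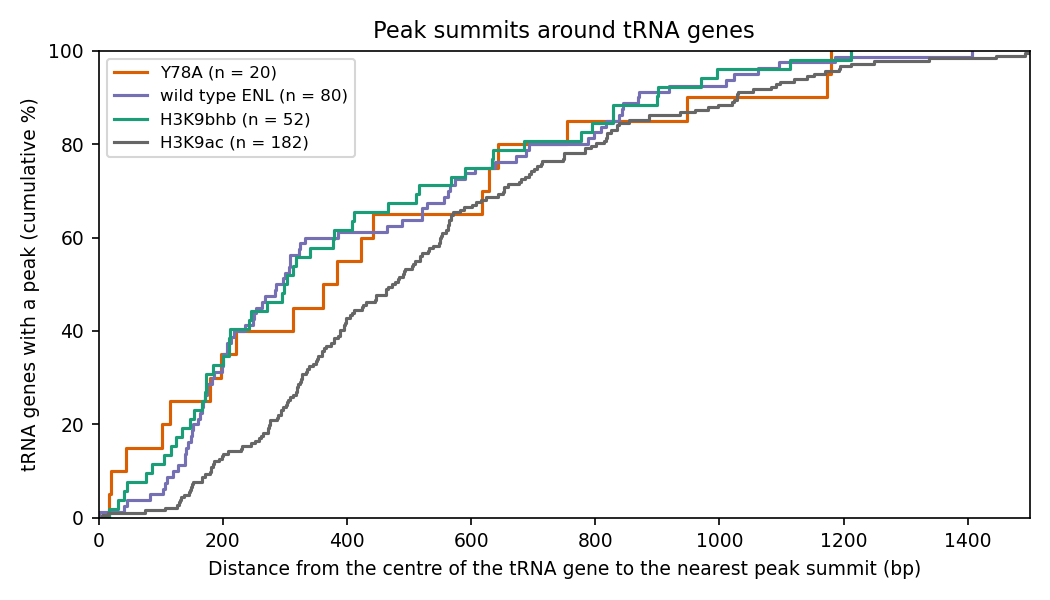
Cumulative share of tRNA genes with a peak (percent, vertical axis) by distance from the centre of the gene to the nearest summit (bp, horizontal axis), for Y78A (20 genes), wild type ENL (80), H3K9bhb (52) and H3K9ac (182); H3K9cr, with 6 genes, is left out. At 250 bp the curves of Y78A, wild type ENL and H3K9bhb stand at 40%, 42.5% and 44.2%, and that of H3K9ac at 15.9%.

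Other genes transcribed by RNA polymerase III were read in the same windows. Of 37 such genes, Y78A was at 8, wild type ENL at 12, H3K9bhb at 13, H3K9cr at 7 and H3K9ac at 23. They were not divided by distance to coding genes, and some lie within 2 kb of a coding gene end. For all 3197 short miRNA, snoRNA and snRNA genes, some of them among the 37, the shares were 3.53%, 6.54%, 4.50%, 1.09% and 12.0% in the same order. The highest wild type folds were at RPPH1, the RNA of RNase P that trims tRNA precursors, with 7.83-fold in Y78A, 8.21-fold in wild type ENL, 7.33-fold in H3K9bhb, 4.25-fold in H3K9cr and 3.77-fold in H3K9ac. RPPH1 lies 224 bp from PARP2, and RN7SK, named below, 336 bp from GSTA4. At both, peaks of the gene and of its neighbour cannot be told apart. RN7SL2 and RN7SL1, the RNAs of the signal recognition particle, had 5.69-fold and 6.84-fold in Y78A and 8.10-fold and 7.45-fold in wild type ENL. RN7SK, which holds the elongation factor P-TEFb inactive, had 5.16-fold in Y78A and 5.83-fold in wild type ENL. These folds exceeded the highest Y78A and wild type ENL values at tRNA genes (7.15 and 7.33) at RPPH1 for Y78A and at RPPH1, RN7SL2 and RN7SL1 for wild type ENL. Among the 17 listed 5S rRNA genes, a tandem array, Y78A had a peak at 1 and wild type ENL at 3, all below 3-fold.

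Protein-coding genes of the tRNA pathway were read within 1 kb of either end, as were all coding genes, of which 14.6% had Y78A, 28.6% wild type ENL, 23.8% H3K9bhb, 4.49% H3K9cr and 56.4% H3K9ac. No difference from that background was tested. Of 18 genes of RNA polymerase III subunits, Y78A was at 5, wild type ENL at 12, H3K9bhb at 11, H3K9cr at 3 and H3K9ac at 17. POLR3D had 5.50-fold in Y78A and 6.90-fold in wild type ENL, POLR3B 5.27-fold and 6.45-fold, and POLR2H, shared by all 3 polymerases, and POLR3F had wild type ENL at 6.32-fold and 6.24-fold without Y78A. Of 18 genes of assembly factors and regulators, Y78A was at 6, wild type ENL at 8, H3K9bhb at 7, H3K9cr at 2 and H3K9ac at all 18. ZNF143, an activator of snRNA-type promoters, had 6.93-fold in Y78A and 7.91-fold in wild type ENL. TBP, the TATA-binding protein in TFIIIB, had 5.87-fold in Y78A and 7.74-fold in wild type ENL, and SNAPC1 6.43-fold and 5.56-fold. GTF3C1, the B box binding subunit of TFIIIC, had wild type ENL at 6.98-fold and no Y78A peak.

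Of 25 tRNA maturation genes, Y78A was at 5, wild type ENL at 14, H3K9bhb at 12, H3K9cr at 1 and H3K9ac at 23. ELAC2, which cuts the 3′ trailer of tRNA precursors, had 4.76-fold in Y78A and 7.34-fold in wild type ENL. RPP40, a subunit of RNase P, had 6.45-fold in Y78A and 7.25-fold in wild type ENL. CLP1, a partner of the splicing endonuclease, and POP1, another RNase P subunit, had wild type ENL at 7.14-fold and 6.76-fold and no Y78A peak.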

How the data were processed

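The 5 CUT&Tag libraries of HepG2 cells were each represented by 1 deposited MACS2 narrowPeak list. Per the submitters' processing notes, hg38 was the build and the tools were Bowtie2, MACS2, FastQC and deepTools, with no versions or settings. Read totals, the control library, the handling of duplicates and of reads that match several places, and any transposase offset were not given in the sources used here, so the depth is unknown. The deposited interval positions and summit offsets are in base pairs. The deposited score was not used further, the deposited fold is a ratio of summit signal to local background, and the deposited p-value and q-value columns are on the −log10 scale. The lists held 5797, 12033, 9660, 4148 and 33213 lines for Y78A, wild type ENL, H3K9bhb, H3K9cr and H3K9ac, and peaks on the 24 standard chromosomes were kept.

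Groups came from sample titles. Gene positions came from RefSeq (GRCh38.p14), whose table gives no strand for tRNA genes. Overlaps were computed in Python 3.11.15 (pandas 2.3.3, SciPy 1.17.1), tested on simulated data and compared with bedtools 2.31.1; figures used matplotlib 3.10.9. Shares have 95% Wilson intervals, and with 1 library per group no test between groups was made. Named tRNA genes away from coding genes were the 10 with the highest wild type ENL fold, the 5 highest in each other list and the 5 highest wild type ENL genes without Y78A. Near coding genes they were the 5 with the highest wild type ENL fold, and from each pathway list the 4 highest. Other genes named were chosen after their values were seen, and the genes whose sequence is printed were chosen from the 14 that RefSeq's windows hold. The members and gene lists were chosen with earlier results of these data known. Alternatives changed the window, the required overlap, the use of summits, the peak threshold, list length and the counting of genes.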

Additional observations from a re-analysis of the deposited data

How the results depend on the processing

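Across 9 alternatives, 63 values were recomputed and 42 moved by less than their limits (1.5 times for a count, the 95% interval for a share). The other 21 moved farther. The counts among them all fell, under narrower windows, fewer peaks or fewer genes. Shares of wild type ENL genes, 60% with H3K9bhb and 25% with Y78A as reported, also moved, down for H3K9bhb and up for Y78A. The settings do not force a share to move, and why these did was not tested. Counting only peaks on the tRNA gene itself gave 7 genes for Y78A, 33 for wild type ENL, 18 for H3K9bhb, 0 for H3K9cr and 47 for H3K9ac, and H3K9bhb at 42.4% of wild type ENL genes. A flank of 250 bp gave 13 genes for Y78A, 34 for H3K9bhb, 1 for H3K9cr and 114 for H3K9ac. A −log10 q of at least 5 left 3 genes for H3K9cr. Lists of equal length (3852 peaks) gave 12 genes for Y78A, 15 for wild type ENL, 17 for H3K9bhb and 17 for H3K9ac, and both the Y78A and the H3K9bhb share of wild type ENL genes were then 46.7%. Genes away from coding gene ends numbered 10 for Y78A, 42 for wild type ENL and 21 for H3K9bhb, with H3K9bhb at 42.9% of wild type ENL genes.

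The order of Y78A below wild type ENL held in count under all 9 alternatives, but at equal length the intervals overlapped (1.56 to 4.67% and 2.06 to 5.51%). No paired analysis was possible because each group has 1 library. Depth is unknown, and the absence of a peak is not the absence of signal.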

Other observations

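tRNA genes away from protein-coding genes were also divided by their distance to lncRNA genes, a division chosen after seeing the data. Of 53 such genes within 2 kb of a lncRNA gene end, Y78A was at 1 (1.89%), wild type ENL at 4 (7.55%), H3K9bhb at 2 (3.77%), H3K9cr at 0 and H3K9ac at 20 (37.7%). Of the 315 farther away, Y78A was at 9 (2.86%), wild type ENL at 38 (12.1%), H3K9bhb at 19 (6.03%), H3K9cr at 5 (1.59%) and H3K9ac at 103 (32.7%). All intervals of the classes overlapped.

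Of 49 tRNA genes lying inside the span of a protein-coding gene, 16 had wild type ENL, against 80 of all 443 (18.1%). Some of the 49 lie within 2 kb of a coding gene end, where the share was 50.7%. The 49 were not divided by that distance. The U6 snRNA genes RNU6-1, RNU6-8 and RNU6-9 had H3K9ac alone, at 2.88-fold, 3.80-fold and 2.62-fold. RNU6-7, with the same H3K9ac fold as its neighbour RNU6-8, had Y78A at 5.16-fold and wild type ENL at 5.19-fold. RNU6-2 had wild type ENL at 2.998-fold and H3K9ac at 2.62-fold, without Y78A. RNU6-9 lies 297 bp from MED16 and RNU6-2 399 bp from TMEM259. The Y RNA genes RNY1, RNY3, RNY4 and RNY5 likewise had H3K9ac alone. The vault RNA genes VTRNA1-1 and VTRNA1-2 had Y78A at 3.88-fold and 4.25-fold and wild type ENL at 5.55-fold and 5.48-fold.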
